A study of Mus musculus with 13 samples.

Results

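The urethra of the mouse embryo was compared with the whole newborn mouse, which asks which genes are enriched in this tube and its surrounding mesenchyme over the body as a whole. All 3 urethra arrays and all 3 reference arrays of the study were taken, 6 of its 13 arrays. The urethra samples (replicates 1, 2 and 6) were microdissected at embryonic day 14 from FVB/N embryos that carried the SMGA/EGFP transgene, where EGFP, a fluorescent reporter, is driven by the Actg2 promoter (smooth muscle gamma-actin). Tissue was cut out by its fluorescence, the samples were not pooled, and the sex of the embryos is given as unknown. Replicates 1 and 2 were at Theiler stage 21 and replicate 6 at stage 22, where a Theiler stage is a step of mouse development set by anatomy. The reference was RNA pooled from whole wild-type FVB/N mice at postnatal day 1 (Theiler stage 27), 4 males and 4 females, and serves in the study as a standard for comparisons between arrays. Its 3 arrays (replicates 1, 2 and 3) repeat 1 kind of pooled RNA and were therefore counted as 1 sample. Every sample had its RNA amplified in 2 rounds. Age, tissue, transgene and pooling all differ between the urethra and the reference, and their parts cannot be told apart. The 7 other arrays hold bladder (3) and urogenital sinus (4) of embryonic day 14 embryos with the same transgene, and were used here for the spread between samples and for 1 comparison at the end. Bladder replicate 2 and sinus replicates 1 and 2 were at Theiler stage 21, and bladder replicates 6 and 8 and sinus replicates 6 and 7 at stage 22.

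At this stage the urethra is an endodermal tube that continues from the urogenital sinus into the genital tubercle, the bud that forms the penis or clitoris. The epithelium of the tube is known as a source of the signal Sonic hedgehog, which acts on the mesenchyme around it. That mesenchyme expresses 5' Hox genes and other patterning factors, and part of it becomes the smooth muscle of the urethral wall. A whole newborn, by contrast, contains differentiated liver, muscle, skin, gut, bone and brain.

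Levels are log2 signal intensities, and differences are urethra minus reference on the log2 scale given with a standard error (SE). Adjusted p-values come from limma with Benjamini-Hochberg adjustment across all 15019 tested genes. The threshold for a call was an adjusted p under 0.05. No level was set against that of another gene, since probe sets differ in how they bind. Median intensity was 221, 378 and 243 on the urethra arrays, against 278, 455 and 350 on the reference arrays. Probe sets at the 3' end of beta-actin exceeded those at its 5' end, which tracks how short the amplified RNA is, most on urethra replicate 1 (a log2 ratio of 3.42) and on reference replicate 1 (3.01). The log2 ratio was 1.30 to 1.37 on the other 4 arrays. The same ratio for Gapdh ranked the arrays otherwise. It was 4.59, 2.71 and 4.54 on urethra replicates 1, 2 and 6, and 4.18, 4.48 and 4.47 on reference replicates 1, 2 and 3. Across probe sets, urethra arrays correlated with one another at 0.891 to 0.937 and reference arrays at 0.889 to 0.899, while pairs of 1 urethra and 1 reference array lay at 0.793 to 0.837. The sample titles are written in 3 styles, and reference replicate 3 is the one reference array in the style of the urethra titles. The labels do not say that styles mark batches.

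In the urethra, 655 of the 15019 genes were called higher than in the reference (4.36%) and 1332 were called lower (8.87%). At an unadjusted p under 0.05 there were 3906 in both directions together. Of the genes called higher, 330 were higher by 4-fold or more and 26 by 16-fold or more. Among the genes called lower, 1225 were lower by 4-fold or more and 535 by 16-fold or more. The median difference of all genes was 0.06. The 3 urethra arrays lay above the 3 reference arrays without overlap for 2900 genes (19.3%) and below them for 3241 (21.6%). With no floor set on low values, 595 genes were called higher and 966 lower. Against reference replicate 3 alone, the array whose title has the style of the urethra titles, 1385 genes were called higher and 1595 lower. With the 6 arrays of this comparison alone in the fit, which leaves the urethra arrays as the only measure of spread, 56 were called higher and 539 lower. In bulk RNA, fewer cells of a type and less RNA per cell cannot be told apart, and this holds for every difference given here.

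Among the 15 genes with the largest higher values Hoxd13 came first, followed by Hbb-y (6.34) and Adamts20 (6.07). Hoxd13 is the most 5' gene of the HoxD cluster and is needed for digits and external genitalia. It stood at 15.78, 14.96 and 15.06 on the urethra arrays, against 7.998, 9.15 and 8.35 on the reference arrays. The lowest urethra array thus lay far above the highest reference array, and the difference was 6.77 (SE 0.33, limma adjusted p = 6.06e-07), or 109-fold. Isl1, a LIM-homeodomain factor of the genital tubercle mesenchyme, had 15.67, 14.43 and 14.75 in the urethra, against 9.03, 8.96 and 11.67 in the reference. Its groups did not overlap, although reference replicate 3 stood above the other reference arrays, and the difference was 5.07 (SE 0.76, adjusted p = 0.0016). Against reference replicate 3 alone, Isl1 still differed by 3.28.

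Fendrr is a long non-coding RNA gene that neighbours Foxf1, with 0 genes between the 2 in the RefSeq annotation. It had 13.74, 14.03 and 12.37 in the urethra, against 8.64, 8.98 and 5.65 in the reference, where 5.65 is the floor set on all values. The difference was 5.62 (SE 0.93, adjusted p = 0.00319). Foxf1 itself, a forkhead factor of mesenchyme around endodermal tubes, was higher by 3.47 (SE 0.71, adjusted p = 0.01). Adamts20, a secreted metalloprotease, stood at 12.85, 12.64 and 12.28 in the urethra, against 7.56, 6.35 and 5.65 in the reference. It was higher by 6.07 (SE 0.40, adjusted p = 4.68e-06). Hmga2, a chromatin protein of growing embryonic tissue, was at 15.71, 15.43 and 15.03 in the urethra, against 10.67, 11.66 and 11.06 in the reference. It differed by 4.26 (SE 0.44, adjusted p = 0.000139), and its groups lay far apart on every array.

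Hbb-y, a beta-like globin of embryonic red cells, had an adjusted p of 2.05e-05, and Rarb, retinoic acid receptor beta, was higher by 4.62. Tmem200c differed by 4.82, Dach2, a transcriptional cofactor of the dachshund family, by 4.78, and Fat3, an atypical cadherin, by 4.50. Kif26b, a kinesin-family protein, was higher by 4.47, Rspo2, a secreted amplifier of Wnt signals, by 4.43, and Foxa1, a forkhead factor of endoderm, by 4.35. Lix1, a limb expression gene, stood at the floor on all 3 reference arrays and at 10.15, 9.87 and 10.17 in the urethra, so it was at least 6.37-fold higher. Where a group lay under the filter level of 7.39 (an intensity of 167.76) on all its arrays, such a bound sets the other group's mean against that level. Cttnbp2, a cortactin-binding protein, differed by 4.76, but another of its probe sets differed by 1.48, and another Rspo2 probe set differed by 0.32.

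All 15 genes were called against reference replicate 3 alone, with differences of 3.28 to 7.73. Left out 1 at a time, no array ended the call of 14 of them, while Fat3 lost its call without reference replicate 3 (difference 3.46, adjusted p = 0.0604). With the 6 arrays alone in the fit, 9 of the 15 were called. Foxf2 (4.25) and Tcf21 (4.21), described below, had smaller differences than these 15 and were also called without overlap. Further down stood Foxp2, a forkhead factor (4.13), and Mdk, the growth factor midkine (3.76), both named after their values were seen.

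**Figure D1:**
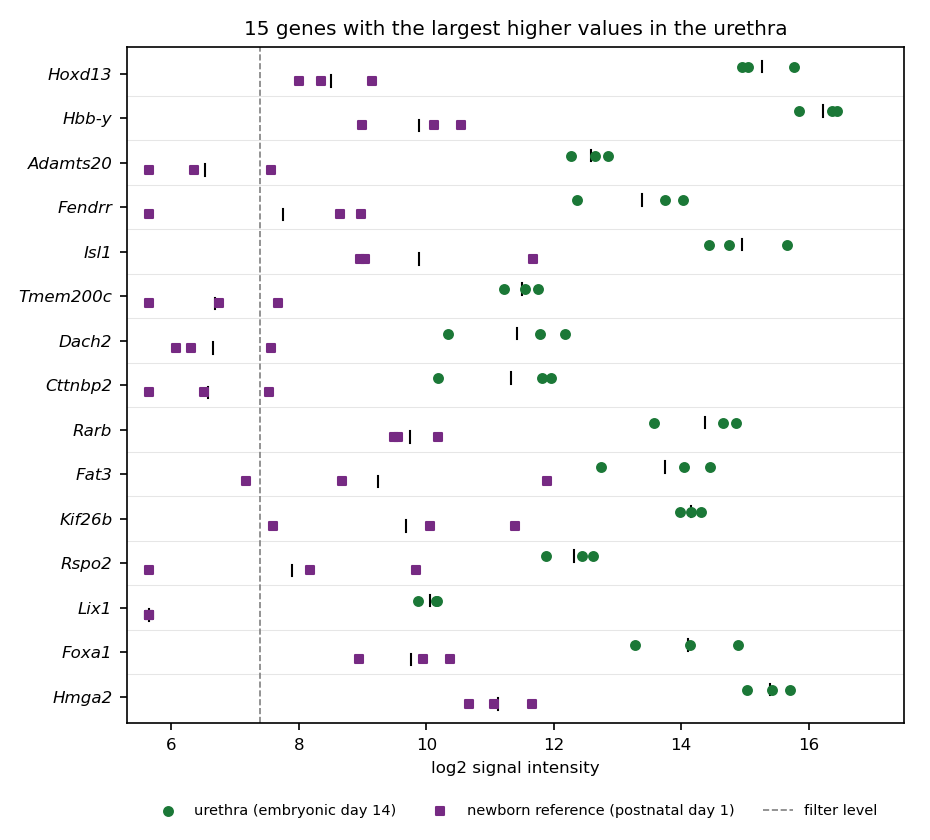
Log2 signal intensity (horizontal axis) of the 15 genes with the largest higher values, with each urethra array as a green circle and each reference array as a purple square. Short black bars are group means and the dashed line is the filter level of 7.39. For each gene the 3 urethra arrays lie right of the 3 reference arrays, and Lix1 lies at the floor of 5.65 on every reference array.

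Hox genes order the body from head to tail, and the 5' members of a cluster act in its most posterior parts and in limb and genital buds. Of the 12 posterior Hox genes tested, 4 were called higher and 1 lower, against 4.36% and 8.87% of all genes. The median difference was 1.51 (0.92 with genes measured only as a bound set at that bound), against 0.06 for all genes. Hoxd10, a paralogue group 10 gene, stood at 12.19, 12.18 and 12.17 on the urethra arrays, against 8.89, 7.91 and 8.09 on the reference arrays. These urethra arrays were nearly identical and all above the reference, and the difference was 3.88 (SE 0.62, adjusted p = 0.00261). Hoxa9 was higher by 2.69 (adjusted p = 0.00385) and Hoxa10 by 2.14 (adjusted p = 0.0141). Another Hoxa9 probe set differed by 0.22.

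Hoxd13 and Hoxd10 were the HoxD members called. Hoxd9 had 8.34, 9.90 and 9.52 in the urethra, against 8.64, 9.62 and 10.19 in the reference, and its groups overlapped (difference -0.23, adjusted p = 0.913). Hoxd8 differed by 0.91 (adjusted p = 0.208). Hoxd11 had 7.34, 8.69 and 8.13 in the urethra, against 5.65, 7.31 and 5.67 in the reference, where every array lay under the filter level. Its urethra mean was at least 1.58-fold above that level, and Hoxd11 was not called (adjusted p = 0.0598). Leaving out urethra replicate 1, reference replicate 2 or urogenital sinus replicate 1 brought Hoxd11 past the threshold (adjusted p = 0.024, 0.0184 and 0.0399), and leaving out urethra replicate 2 did so for Hoxd8 (0.0475).

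In HoxA, the 5' member Hoxa13, which acts with Hoxd13 in limb and genital buds, had values near the filter level. They were 8.74, 8.49 and 7.31 in the urethra, against 6.45, 7.67 and 6.92 in the reference, with a difference of 1.17 (adjusted p = 0.257) and overlapping groups. Hoxa11 differed by 0.40 (adjusted p = 0.695). Hoxa11os, a transcript that overlaps Hoxa11 in the annotation, was higher by 3.67 (SE 0.80, adjusted p = 0.0142), at 11.14, 10.99 and 10.37 in the urethra, against 6.92, 7.16 and 7.40 in the reference. Whether array probes tell the 2 strands apart was not tested. Evx1, a homeobox gene next to Hoxa13 with 1 annotated gene between them, Hottip, had 12.01, 9.74 and 9.75 in the urethra, against 7.25, 5.65 and 5.94 in the reference. All 3 reference values were under the filter level, so Evx1 was at least 8.63-fold higher (adjusted p = 0.00704).

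Hoxc13, known for hair and nail, went the other way. It had 5.65, 5.65 and 5.77 in the urethra, against 9.12, 8.77 and 8.34 in the reference, and was at least 2.56-fold lower (adjusted p = 1.41e-05). It lost its call when no floor was set. Hoxb13 had 11.07, 8.34 and 7.99 in the urethra, against 7.15, 5.65 and 6.23 in the reference, and was not called (adjusted p = 0.242). By limma 0 of 16 anterior or central Hox genes were called, also with robust eBayes, and 3 had an unadjusted p under 0.05. Their median difference was -0.24, and 3 were called without urethra replicate 2. Among them Hoxd1 ranged widely, with 13.15, 7.45 and 10.30 in the urethra, against 6.33, 5.65 and 6.80 in the reference (adjusted p = 0.142, and 0.0122 without urethra replicate 2). Hoxb3 differed by 2.33 (adjusted p = 0.103, and 0.0238 without urethra replicate 2).

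**Figure D2:**
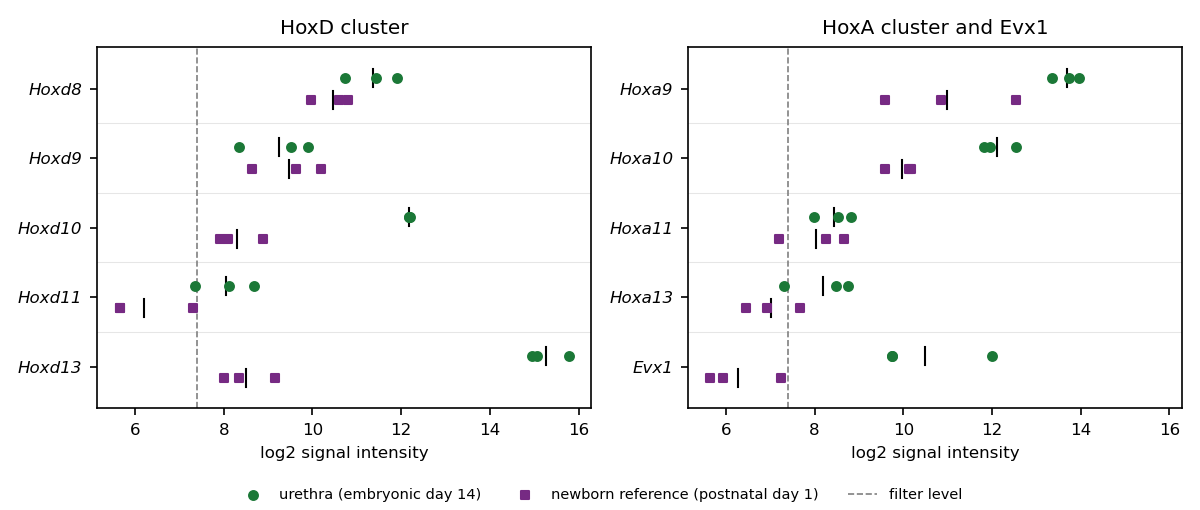
Log2 signal intensity (horizontal axes) of HoxD cluster genes, left, and HoxA cluster genes with Evx1, right, by array, with urethra as green circles, reference as purple squares, black bars for group means and a dashed line for the filter level. Hoxd13 and Hoxd10 lie far right of the reference, while the groups of Hoxd9 and Hoxa11 overlap.

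Transcription factors of the genital tubercle and its mesenchyme held the largest share of higher calls among the 38 lists described. Of 27 tested, 11 were called higher and 0 lower, against 4.36% and 8.87% of all genes. The median difference was 2.09, against 0.06 for all genes. In the fit with the 6 arrays alone 5 were called, and with probe sets averaged per gene 6 were. Foxf2, a forkhead factor of mesenchyme, stood at 12.72, 12.99 and 12.66 in the urethra, against 9.58, 7.60 and 8.45 in the reference. It was 19.01-fold higher (difference 4.25, SE 0.47, adjusted p = 0.000219). Tcf21, a basic helix-loop-helix factor of visceral mesenchyme, had 13.61, 13.54 and 13.54 in the urethra, against 8.91, 9.56 and 9.60 in the reference. It differed by 4.21 (SE 0.47, adjusted p = 0.00022), and the urethra arrays lay within 0.1 of one another. Another Tcf21 probe set differed by 2.13.

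The T-box repressors Tbx2 and Tbx3, which act in limb and genital mesenchyme, were both higher. Tbx2 had 12.94, 12.30 and 12.50 in the urethra, against 8.64, 8.47 and 8.47 in the reference (difference 4.06, adjusted p = 0.000704). Tbx3 differed by 2.90 (adjusted p = 0.0133) on its brightest probe set, which shares probes with other transcripts, and by 0.49 to 2.54 on its 3 other probe sets. It was not called when such probe sets were left out. Also called higher were the nuclear receptors Nr2f1 (2.33) and Nr2f2 (2.56) and the homeobox factors Meis1 (2.65) and Meis2 (2.06). Meis2 reversed to -0.87 on the probe set that stood for it when probe sets with shared probes were left out. Eya1, a transcriptional coactivator of the kidney and genital fields, differed by 2.98 (adjusted p = 0.0382). It lost its call without any 1 of the 3 urethra replicates, reference replicate 1, or urogenital sinus replicates 2 and 6 (adjusted p = 0.0522 to 0.0867).

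Several members had large differences that did not pass the test. Sall1, a zinc-finger factor of kidney and limb buds, differed by 2.88 (adjusted p = 0.155, and 0.0148 without bladder replicate 8). Tbx4, a hindlimb and genital T-box factor, differed by 2.92 (adjusted p = 0.0852), and Sp8, a factor of limb and genital epithelium, by 2.55 (adjusted p = 0.125). Tbx4 passed the test without reference replicate 2 or urogenital sinus replicates 1 or 6 (adjusted p = 0.0329 to 0.0481), and Sp8 without urethra replicate 2 (0.0412). At the other end of the list, Dlx5 differed by -2.53 and Msx1 by -1.30, neither called.

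The hedgehog pathway runs from a secreted ligand through the receptor Patched, which restrains Smoothened, to the Gli transcription factors. Of the 15 members tested, 4 were called higher and 0 lower, against 4.36% and 8.87% of all genes, with a median of 0.78. The ligand Shh stood at 16.28, 15.31 and 15.69 on the urethra arrays, against 12.52, 12.12 and 11.69 on the reference arrays. It was 12.6-fold higher (difference 3.65, SE 0.42, adjusted p = 0.000283), with groups well apart. Dhh, the ligand of Schwann and Sertoli cells, lay lower, with 6.21, 6.43 and 7.43 in the urethra, against 9.61, 9.96 and 9.66 in the reference. Its difference of -3.06 did not pass the test (adjusted p = 0.0914) but did without bladder replicate 6 (0.0435) or 8 (0.0362). Ihh differed by 0.13.

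Ptch1 and Hhip, a receptor and a membrane-bound antagonist that are both induced by the pathway, were called higher. Ptch1 had 15.19, 15.67 and 15.39 in the urethra, against 14.05, 13.72 and 14.16 in the reference (difference 1.44, SE 0.30, adjusted p = 0.0116), although another of its probe sets differed by -1.02. Hhip had 11.12, 11.81 and 11.87 in the urethra, against 9.38, 8.85 and 9.38 in the reference (difference 2.40, SE 0.63, adjusted p = 0.0319). Without urethra replicates 2 or 6 or bladder replicate 6, Hhip lost its call (adjusted p = 0.0522 to 0.0795). Gli1, another known target and a transcriptional activator, had 10.50, 10.78 and 9.85 in the urethra, against 8.40, 8.41 and 8.83 in the reference. Its arrays did not overlap, as for 19.3% of all genes, and its difference of 1.83 missed the threshold (adjusted p = 0.253).

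Sufu, an inhibitor of Gli factors, was higher by 1.78 (adjusted p = 0.00358), while another of its probe sets differed by -0.61. Smo, the Smoothened gene, differed by 1.17 (adjusted p = 0.451), Gli3 by 0.91 (adjusted p = 0.169) and Gli2 by 0.78 (adjusted p = 0.248). With probe sets averaged per gene 2 members were called, and with the 6 arrays alone in the fit 1 was.

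Retinoic acid is made from retinol by retinol and retinal dehydrogenases, is carried by CRABP proteins and acts through nuclear receptors bound to DNA repeats. Of 14 members tested, 3 were called higher and 0 lower, against 4.36% and 8.87% of all genes. The median was 0.82 (0.79 with bounded genes at their bound), and 1 member was called with the 6 arrays alone. The 3 called higher were 1 receptor, 1 enzyme of synthesis and 1 carrier. Rarb, the receptor, stood at 13.58, 14.66 and 14.87 in the urethra, against 9.49, 10.18 and 9.56 in the reference. It was 24.6-fold higher (difference 4.62, SE 0.47, adjusted p = 0.000124).

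The promoter of Rarb is known to carry a retinoic acid response element of the DR5 kind, 2 copies of a short repeat with 5 bases between them. It is shown because Rarb was the member with the largest difference. The RefSeq promoter window on GRCm38.p6, chr14:16575427-16575726 on the minus strand, runs from 250 bases before the transcript's start to 50 after it. The stretch that matched the search given below is in capitals, and its nearest base lies 37 bases before the start. The search held GTTCA before the 5 bases and AGTTCA after them, so the first base of the element may stand before the capitals.
Rarb promoter: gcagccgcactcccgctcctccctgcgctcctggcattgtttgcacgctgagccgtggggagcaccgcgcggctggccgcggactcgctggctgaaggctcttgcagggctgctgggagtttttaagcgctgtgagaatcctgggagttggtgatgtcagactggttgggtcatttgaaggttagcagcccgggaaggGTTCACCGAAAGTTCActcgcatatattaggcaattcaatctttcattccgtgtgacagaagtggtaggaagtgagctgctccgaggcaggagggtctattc

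The letters GTTCA, any 5 bases and AGTTCA were searched in that order on both strands of all 32851 promoter windows of the RefSeq table and were found in 11 (0.0335%), 5 of them of genes tested here. Those 5 sites are shown to set the Rarb element beside the others, with the searched letters in capitals and each read on the strand that carries it.
Rarb, nearest base 37 bases before the start: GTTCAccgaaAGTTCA
Cyp26a1, nearest base 17 bases before the start: GTTCAcccaaAGTTCA
Blvrb, nearest base 4 bases before the start: GTTCAaagccAGTTCA
Tnfsf13b, nearest base 206 bases before the start: GTTCAgatggAGTTCA
Lcorl, farthest base 35 bases after the start: GTTCAaatgcAGTTCA
Of these genes Rarb alone was called. Cyp26a1, which encodes an enzyme that breaks retinoic acid down, had 8.17, 8.89 and 9.79 in the urethra, against 8.56, 8.97 and 7.01 in the reference, and its groups overlapped (difference 0.77, adjusted p = 0.598). Blvrb differed by -1.27, Lcorl by -0.13 and Tnfsf13b by -0.11, none of them called. A match is a description of letters in a window and not a measured binding site. The hedgehog-linked Gli site TGGGTGGTC was searched in the same windows and found in 83 (0.253%), and none of the 133 named genes with a window held it.

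Aldh1a2, the retinal dehydrogenase of mesenchyme, stood at 13.54, 12.74 and 13.65 in the urethra, against 9.34, 9.99 and 9.45 in the reference. It was 13.1-fold higher (difference 3.72, SE 0.51, adjusted p = 0.000993). Crabp2, which hands retinoic acid to its receptors, had 10.62, 10.65 and 11.05 in the urethra, against 8.70, 6.58 and 8.16 in the reference (difference 2.96, SE 0.42, adjusted p = 0.00112). Rdh10, the retinol dehydrogenase that feeds Aldh1a2, differed by 2.43 without passing the test (adjusted p = 0.0683, and 0.0485 without urogenital sinus replicate 7). Stra6, a retinol transporter, had 8.21, 7.80 and 7.38 in the urethra, against 5.65, 5.65 and 5.87 in the reference (adjusted p = 0.0652, and 0.0269 without urogenital sinus replicate 1).

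**Figure D3:**
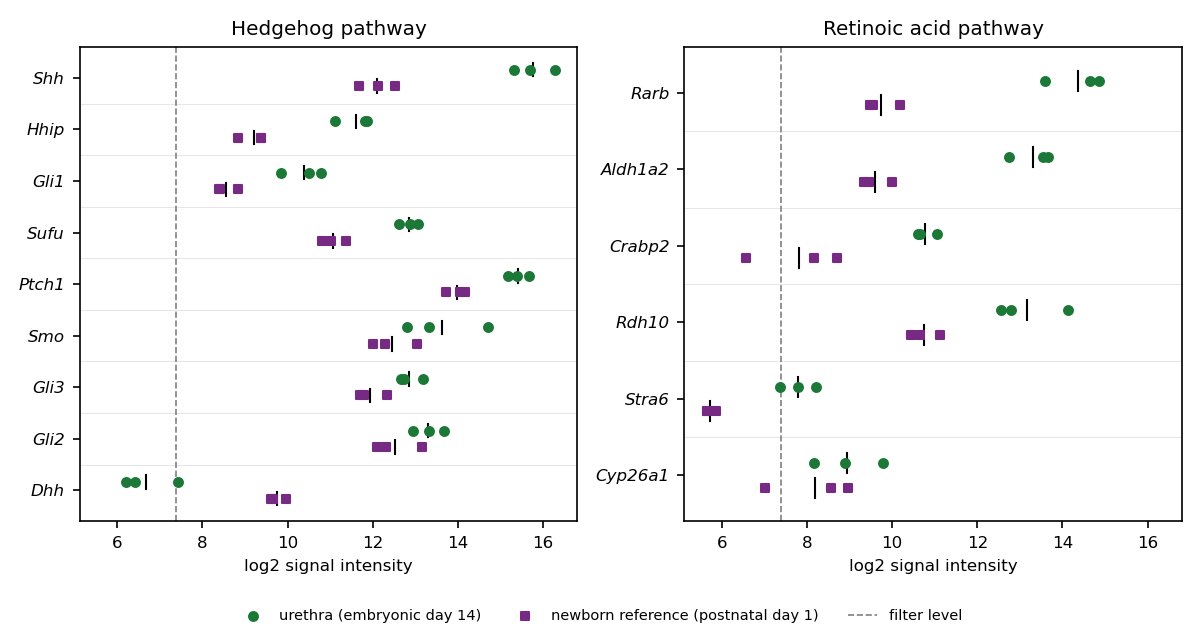
Log2 signal intensity (horizontal axes) of hedgehog pathway genes, left, and retinoic acid pathway genes, right, by array, with urethra as green circles, reference as purple squares, black bars for group means and a dashed line for the filter level. Shh, Rarb and Aldh1a2 lie far right of the reference in the urethra, Dhh lies left of it, and the groups of Gli2, Smo and Cyp26a1 overlap.

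Wnt proteins signal through Frizzled and Ror receptors, and R-spondins amplify the signal. Of 31 members tested, 6 were called higher and 1 lower, against 4.36% and 8.87% of all genes. The median was 0.66, and 2 were called higher with the 6 arrays alone. Of the 6 called higher, 4 were receptors. Ror1, a receptor tyrosine kinase for Wnt5a, stood at 14.49, 14.79 and 14.87 in the urethra, against 10.78, 11.46 and 11.79 in the reference (difference 3.37, SE 0.40, adjusted p = 0.000386). Its relative Ror2 differed by 1.77 (adjusted p = 0.035), Fzd2 by 2.17 (adjusted p = 0.0162) and Fzd7 by 1.60 (adjusted p = 0.00193). The ligand Wnt5a had 13.02, 11.89 and 12.50 in the urethra, against 11.75, 10.61 and 10.15 in the reference. Its difference of 1.63 missed the threshold (adjusted p = 0.0744), which it passed without urethra replicate 2 (0.0433), reference replicate 1 (0.0251) or bladder replicate 8 (0.0388). Ror2 lost its call without any 1 of the 3 urethra replicates, reference replicate 2, bladder replicate 8 or urogenital sinus replicates 2 and 6 (adjusted p = 0.0505 to 0.078).

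Secreted modulators moved both ways. Rspo2 was higher, as given above, and stood at 12.45, 11.88 and 12.62 in the urethra, against 9.84, 8.17 and 5.65 in the reference. Rspo3 differed by 2.18 (adjusted p = 0.325). Sfrp2, a secreted Frizzled-related protein, was called higher at 1.68 (adjusted p = 0.037), while Sfrp4 of the same family was called lower at -2.34. Without urogenital sinus replicate 1, 2 members of the list were called lower. The Sfrp2 call was lost without any 1 of the 3 urethra replicates, reference replicate 1, bladder replicates 2 and 6 or urogenital sinus replicate 6 (adjusted p = 0.0529 to 0.0776). Axin2, a common Wnt target, differed by 1.04 and was not called.

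Of 18 genes of the BMP pathway, the ligand Bmp4 was the 1 called, and its difference was higher. Over all genes 4.36% were called higher and 8.87% lower. Nothing is read from this count or from the FGF count below. Bmp4 had 13.08, 11.74 and 12.34 in the urethra, against 9.05, 9.05 and 10.39 in the reference, a 7.40-fold difference without overlap (adjusted p = 0.00767). Bmp7, a ligand of the urethral epithelium, differed by 1.00 (adjusted p = 0.288). Of 14 genes of the FGF pathway, the receptor Fgfr4 was called lower (-2.34, adjusted p = 0.0463). It was no longer called without urethra replicates 1 or 6, reference replicate 3, any bladder replicate or urogenital sinus replicate 2 (adjusted p = 0.0547 to 0.0946). Other Fgfr4 probe sets differed by -1.74 and -0.09. Among 18 Notch pathway genes and 18 imprinted growth genes 0 were called by limma, with medians of 0.53 and -0.01. At an unadjusted p under 0.05 there were 0 Notch and 2 imprinted genes, and with robust eBayes 0 of either list were called. Their members with the smallest p were Hes6, a Notch-related repressor (1.44, adjusted p = 0.261), and Igfbp5, a binding protein of insulin-like growth factors (1.66, adjusted p = 0.0832). Igfbp5 passed the threshold without reference replicate 1 (0.0399) or urogenital sinus replicate 1 (0.0112).

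Actg2, whose promoter drives the transgene, did not differ detectably between the urethra and the newborn. It stood at 12.89, 13.65 and 13.40 on the urethra arrays, against 13.13, 13.64 and 14.01 on the reference arrays. The groups overlapped, with a difference of -0.28 (SE 0.81, adjusted p = 0.888), which turned to 0.10 when arrays were centred on their medians. Of the 19 smooth muscle genes tested, 2 were called higher and 2 lower, with a median of 0.50. The shares over all genes were 4.36% higher and 8.87% lower, and nothing is read from these counts. The median was 0.02 against reference replicate 3 alone. Acta2, smooth muscle alpha-actin, differed by 0.50 (adjusted p = 0.706), Myh11, smooth muscle myosin, by 0.56 (adjusted p = 0.834) and the smooth muscle actin binder Tagln by -1.47 (adjusted p = 0.338).

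Higher in the urethra were Synpo2, an actin-bundling protein (2.94, adjusted p = 0.00487), and Pgm5, a protein of smooth muscle adhesion sites (2.57, adjusted p = 0.00399). Lower were Des, the intermediate filament desmin of all muscle types (-3.55, adjusted p = 0.0248), and Tpm1, a tropomyosin of all muscle types (-3.18). Other probe sets of Synpo2 differed by 1.16, 1.20 and -2.38, and another of Des by -0.77. With probe sets averaged per gene the list held 1 higher and 1 lower call. Des lost its call without urethra replicate 1 or 6 (adjusted p = 0.0609 and 0.0637), and the list then held 1 and 0 lower calls, and 1 without bladder replicate 2 or urogenital sinus replicate 6. Myocd, the master coactivator of smooth muscle genes, had 10.28, 14.74 and 14.58 in the urethra, against 5.65, 7.90 and 7.93 in the reference. Urethra replicate 1 stood apart from the other 2, and the difference of 6.04 just missed the threshold (SE 1.77, adjusted p = 0.0513). Without urethra replicate 1 it was 7.50 (adjusted p = 0.00802), and it also passed without reference replicates 2 or 3 or urogenital sinus replicate 7 (0.0382 to 0.0406).

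Among 24 genes of urothelium and sinus endoderm, 4 transcription factors were called higher and 0 genes lower. The shares over all genes were 4.36% and 8.87%, and the median of the list was 0.42. Foxa1 stood at 14.90, 13.27 and 14.14 in the urethra, against 9.94, 10.37 and 8.95 in the reference, and was 20.4-fold higher (SE 0.56, adjusted p = 0.000644). Gata3 (2.09), a zinc-finger factor of urothelium, and Grhl3 (1.92) and Grhl2 (1.47), grainyhead factors of epithelial barriers, were the others. Each of these 3 lost its call in some fits with 1 array left out. Gata3 did so without reference replicate 1 (adjusted p = 0.0594), and both Grhl2 and Grhl3 without urethra replicates 1 or 6, reference replicate 3, any bladder replicate or urogenital sinus replicates 2 or 7 (Grhl2 also without 6), at adjusted p between 0.0507 and 0.135. The count was 2 without urethra replicate 1, reference replicate 3, any bladder replicate or urogenital sinus replicates 2 or 7, and 0 with the 6 arrays alone in the fit. With arrays centred on their medians 1 of the 24 was called.

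Upk3b, a uroplakin, was not called in the fit with all arrays, but without urethra replicate 2 it was one of 2 genes of the urothelial list called lower (-4.54, adjusted p = 0.00318). It had 5.81, 9.09 and 5.65 in the urethra, against 10.43, 10.27 and 10.10 in the reference. Upk1b, a uroplakin of the bladder lining, had 12.69, 10.87 and 11.89 in the urethra, against 10.57, 9.97 and 10.53 in the reference (adjusted p = 0.324). The basal cell keratin Krt5 had 13.87, 11.89 and 13.47 in the urethra, against 14.00, 13.42 and 13.47 in the reference (adjusted p = 0.686). Pparg, a nuclear receptor of urothelium and fat, differed by -4.24 (adjusted p = 0.0943). Of 24 general epithelial genes, 2 were called higher and 3 lower, and the median was -0.25. Against 4.36% higher and 8.87% lower over all genes, nothing is read from these counts. Cldn6, a claudin of embryonic epithelium, was higher by 3.49 (adjusted p = 0.00454) and Prom1, a protein of cell protrusions, by 1.62 (adjusted p = 0.00776). Lower were Krt14 (-5.13, adjusted p = 0.00116), Krt17 (-2.81) and Pkp1 (-3.25), genes also abundant in skin. Other Krt14 probe sets differed by -0.70 and -5.36.

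Of 27 cell cycle genes, 7 were called higher and 0 lower, against 4.36% and 8.87% of all genes. Differences were above 0 for 24 of the 27, with a median of 1.24. Aurkb, a kinase of chromosome segregation, had 12.26, 12.16 and 12.38 in the urethra, against 10.79, 10.09 and 10.80 in the reference (difference 1.71, SE 0.29, adjusted p = 0.00343). Top2a, topoisomerase II alpha, had 15.001, 14.41 and 14.72 in the urethra, against 13.68, 12.68 and 12.96 in the reference (difference 1.61, adjusted p = 0.00679). Its other probe set differed by -0.63. The other 5 called were Kif11, Mcm4, Aurka and Ccna2, at 1.16 to 1.67, and Tyms, whose reference arrays were all under the filter level and which was at least 1.87-fold higher. The count rests on several arrays: it was 3 without urethra replicate 1, 4 without reference replicate 2, and 2 without urethra replicate 6, any bladder replicate or urogenital sinus replicate 6. It was 2 with arrays centred on their medians and 0 with the 6 arrays alone in the fit. Pcna, the DNA clamp of replication, differed by -0.24 and Mki67, the proliferation antigen, by -0.02.

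Hmga2 was the 1 gene called among 12 embryonic RNA-binding and chromatin growth genes, whose median was 1.05. In that list 2 were called without reference replicate 2 or urogenital sinus replicate 1. Over all genes 4.36% were called higher, and nothing is read from the count. Igf2bp1, an RNA-binding protein of embryonic tissue, had 9.95, 13.06 and 12.36 in the urethra, against 8.95, 10.31 and 9.99 in the reference (adjusted p = 0.479). Ezh2, the histone methyltransferase of the Polycomb complex, had 13.67, 13.46 and 13.36 in the urethra, against 12.32, 12.51 and 12.30 in the reference. Its difference of 1.12 missed the threshold (adjusted p = 0.063), which it passed without reference replicate 2 (0.0476) or urogenital sinus replicate 1 (0.034).

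**Figure D4:**
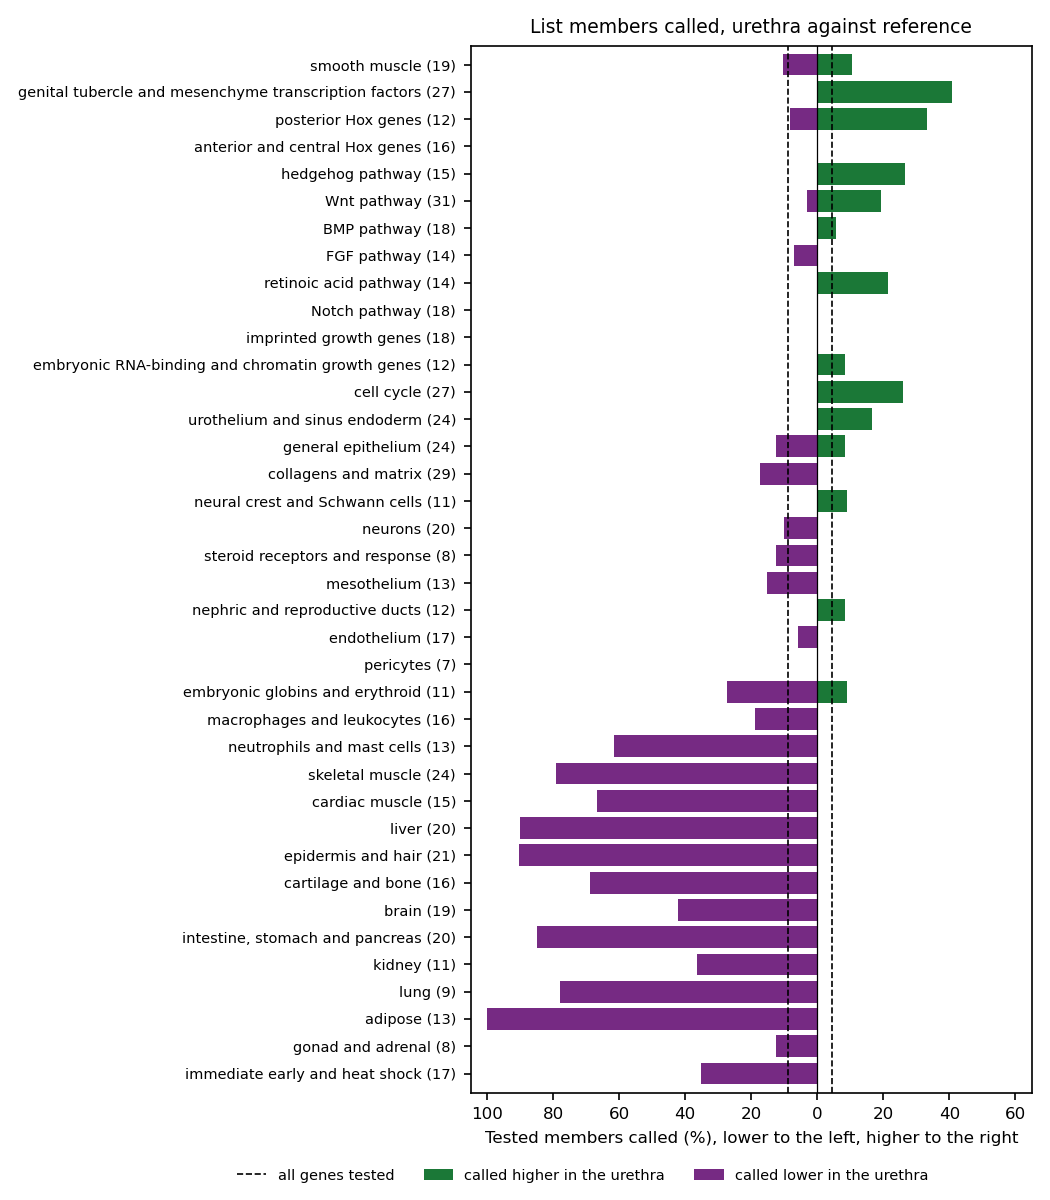
Share of the tested members of each of the 38 lists called lower in the urethra (purple, to the left) and called higher (green, to the right), in percent, with the number tested in brackets. Dashed lines are the shares over all genes, 8.87% lower and 4.36% higher. Genital tubercle factors, posterior Hox genes and the hedgehog pathway reach furthest right (11 of 27, 4 of 12 and 4 of 15 members), while adipose, epidermis and liver lists reach furthest left.

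The lists for organs that a newborn contains are read against the 8.87% of all genes called lower. Many members were under the filter level on all 3 urethra arrays: 10 of liver, 10 of epidermis and hair, 7 of adipose, and 7 of intestine, stomach and pancreas. Some, such as Flg and Mmp13, stood at the floor on every urethra, bladder and sinus array. These passed the filter only through the reference and could only be called lower, so their calls say little beyond their presence in the newborn. Of the liver genes, 18 of 20 were called lower, with a median of -7.84 (-7.22 with bounded genes at their bound). Fabp1, the liver fatty acid-binding protein, was at the floor on all 3 urethra arrays and at 16.36, 15.61 and 16.26 in the reference, so it was at least 411-fold lower in the urethra (adjusted p = 4.44e-07). Fgb and Fgg, chains of fibrinogen, were at least 352-fold and 442-fold lower. Also among the 8 genes with the largest lower values were the apolipoproteins Apoa4 and Apoa1, the growth factor-binding protein Igfbp1, the plasma protein Ahsg and the fatty acid hydroxylase Cyp4a14. All 8 were called whichever array was left out, and with the 6 arrays alone in the fit. Where region arrays lie at the floor they show no spread, so adjusted p-values of such genes rest partly on the floor.

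All 13 adipose genes tested were called lower, as were 19 of 21 genes of epidermis and hair, 17 of 20 of intestine, stomach and pancreas, and 7 of 9 of lung. Examples were Adipoq, an adipocyte hormone (at least 73.7-fold lower), Flg, filaggrin of cornified skin (at least 89.8-fold), Fabp2 of gut epithelium (at least 182-fold) and Sftpc, a surfactant protein (141-fold). For cartilage and bone 11 of 16 were called lower, for brain 8 of 19, for kidney 4 of 11, and for gonad and adrenal 1 of 8, a share near the 8.87% of all genes from which nothing is read. The gonad and adrenal count was 2 without urethra replicate 2, reference replicate 3 or urogenital sinus replicate 6, and 1 brain gene was called higher without urethra replicate 1 or reference replicate 1. Among them were Mmp13, a collagenase of growing bone, which was at least 31.3-fold lower, and Gad1, the enzyme that makes the transmitter GABA, which was at least 10.4-fold lower.

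Striated muscle genes were called lower as well, with urethra replicates that differed from one another. Of 24 skeletal muscle genes, 19 were called lower with a median of -6.18 (-5.96 with bounds), and of 15 cardiac muscle genes 10 were, with a median of -4.42 (-3.52 with bounds). The mean of the skeletal list was 7.24, 8.98 and 6.88 on urethra replicates 1, 2 and 6, against 13.65, 13.57 and 13.86 in the reference. Myh3, the embryonic myosin heavy chain, had 9.83, 12.89 and 5.86 in the urethra, so replicate 2 stood above replicate 6 by far, against 15.89, 15.34 and 15.93 in the reference. With the 6 arrays alone in the fit 8 of the 24 were called. Neuronal genes varied as well: the mean of the 20 tested was 8.01, 10.04 and 9.996 in the urethra, against 10.82, 10.96 and 10.95 in the reference. Of the 20, 2 were called lower, Dcx, a microtubule protein of migrating neurons (-4.08), and Scg2, a granin of secretory vesicles (at least 4.80-fold lower). That share is near the 8.87% of all genes called lower, and nothing is read from it. Dcx lost its call without urethra replicates 1 or 6, bladder replicates 2 or 6, or urogenital sinus replicates 6 or 7 (adjusted p = 0.0506 to 0.0832), which left 1 lower call, and 4 neuronal genes were called lower without urogenital sinus replicate 1.

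Of 29 collagens and matrix genes, 5 were called lower and 0 higher, against 8.87% and 4.36% of all genes. Differences were below 0 for 25 of them, with a median of -0.83. Lum, a small proteoglycan of collagen fibrils, had 11.52, 11.27 and 10.68 in the urethra, against 13.93, 14.27 and 14.02 in the reference (difference -2.92, SE 0.63, adjusted p = 0.0136). Thbs2, a matricellular protein, differed by -3.09 (adjusted p = 0.00643) and Bgn, another small proteoglycan, by -2.40 (adjusted p = 0.0141). Vcan, the large proteoglycan of embryonic matrix, and Fbn2, the fibrillin of embryonic microfibrils, lay higher by 1.06 and 0.90, not called (adjusted p = 0.0956 and 0.117). Both passed the threshold without reference replicate 1 (0.0441 and 0.0421). The count of 5 was 3 without urethra replicates 1 or 6, 8 without urogenital sinus replicate 1, and 1 with arrays centred on their medians.

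Counts of blood cell genes are set against 4.36% higher and 8.87% lower over all genes. Of 11 globin and erythroid genes, Hbb-y was called higher and 3 were called lower. Hbb-y had 16.37, 16.45 and 15.85 in the urethra, against 10.55, 10.11 and 8.997 in the reference, on a probe set that shares probes with other transcripts. Hbb-bh1, another globin of primitive red cells, had 14.51, 10.17 and 8.49 in the urethra, against 7.05, 5.65 and 5.65 in the reference, and was not called (adjusted p = 0.273). Alas2, the heme synthesis enzyme of red cells, was lower by -2.92 (adjusted p = 0.0276), a call lost without urethra replicates 1 or 6 (0.0596 and 0.0536), and Rhag, a red cell membrane protein, was at least 4.61-fold lower. Of 13 neutrophil and mast cell genes 8 were called lower, with a median of -4.35. Ltf, lactoferrin of neutrophil granules, was at the floor on each urethra array and at least 54.0-fold lower. Of 16 macrophage and leukocyte genes 3 were called lower, among them Lyz2, lysozyme (-3.71, adjusted p = 0.00188), and all 16 differences were below 0. The macrophage count was 5 without reference replicate 2 or urogenital sinus replicate 1, and 1 neutrophil or mast cell gene was called higher without urogenital sinus replicate 1.

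The lists for other cells that the region could hold are set against shares of 4.36% higher and 8.87% lower over all genes, and nothing is read from shares near these. Of 17 endothelial genes 1 was called, Lyve1 of lymphatic vessels, which was at least 41.3-fold lower (adjusted p = 0.00391), and the median was -0.05. None of 7 pericyte genes was called by limma, also with robust eBayes, and the 1 with an unadjusted p under 0.05 was Rgs5 (adjusted p = 0.0995). Of 13 mesothelial genes Calb2 and Gpm6a were called lower, and 3 of the 13 were under the filter level on all urethra arrays. Of 11 genes of neural crest and Schwann cells Gfra1, a receptor for the factor GDNF, was called higher (3.26, adjusted p = 0.000649). That list had 2 higher calls without reference replicate 1 or urogenital sinus replicate 7 and 3 without urogenital sinus replicate 1, and 1 lower call without urethra replicate 2 or urogenital sinus replicate 1. Of 12 genes of nephric and reproductive ducts Gata3 was called higher, a call lost without reference replicate 1, and 1 was called lower without reference replicate 3, bladder replicate 8 or urogenital sinus replicate 1. Of 8 genes of steroid receptors and response Nr3c2, the mineralocorticoid receptor, was called lower (at least 5.23-fold, adjusted p = 0.0491). The Nr3c2 call was lost in 10 of the 13 fits that left out 1 array (adjusted p = 0.055 to 0.105), those that kept it being without reference replicate 1 or urogenital sinus replicates 1 or 7. In the steroid list 1 gene was called higher without urethra replicate 6 or reference replicates 1 or 2.

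Immediate early and heat shock genes, which respond to stress and handling, were called lower in 6 of 17 members and higher in 0. The shares over all genes were 8.87% lower and 4.36% higher, and the median of the list was -1.36. Egr3, an early growth response factor, was at least 18.9-fold lower, and Hspa1a, a heat shock protein, was lower by -2.42 (adjusted p = 0.00446). The part of tissue handling in these or in the other differences was not tested.

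The 3 urethra arrays also differed in sex-linked RNA. Xist, the RNA of the inactive X chromosome, had 15.87, 15.86 and 7.60 on urethra replicates 1, 2 and 6, against 15.23, 14.83 and 15.08 in the reference pool of both sexes. Eif2s3y, a gene of the Y chromosome, had 5.65, 5.65 and 11.25 in the urethra, against 10.53, 9.35 and 10.61 in the reference. Replicate 6 thus stood opposite to replicates 1 and 2 in both genes. It is also the urethra array at Theiler stage 22, and which genes follow sex or stage was not tested. Over all genes tested, the median SD was 0.47 in the urethra and 0.48 in the reference.

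The urethra was also set against the mean of bladder and urogenital sinus, a contrast in which the reference cancels. A gene called against this mean need not differ from each of the 2 regions. The 2 regions are unlike in Actg2, whose mean was 13.31 in the urethra, 13.67 in bladder and 9.26 in sinus. Here 101 of 15019 genes were called higher in the urethra (0.672%) and 69 lower (0.459%), with 2706 at an unadjusted p under 0.05. Hoxd13 was among those higher, at 15.78, 14.96 and 15.06 in the urethra, against means of 13.74 in bladder and 14.63 in sinus. It differed by 1.08 (SE 0.20, limma adjusted p = 0.0375). Foxf2 differed by 2.33 (adjusted p = 0.0162), Tmem200c by 2.19 and Tcf21 by 1.46. Lix1 was under the filter level on all 3 bladder arrays, so it was at least 3.20-fold higher than the mean of the 2 regions (adjusted p = 0.0243). Isl1 (1.90, adjusted p = 0.082), Fendrr (2.05, adjusted p = 0.114), Rarb (1.31, adjusted p = 0.0628) and Shh (1.15, adjusted p = 0.0669) did not pass the test. Adamts20 differed by -0.02. This fit has no term for the number in the titles. With that number as a random block 318 genes were called higher and 201 lower, and Isl1, Fendrr, Rarb and Shh passed.

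Sall1 was higher by 3.60 (adjusted p = 0.0471) and Pdlim4, an actin-linked LIM protein, by 3.39 (adjusted p = 0.0206), on probe sets under the filter level on 2 of the 3 bladder arrays. The basal keratins Krt15 and Krt5 were higher by 3.37 and 3.36, although neither was called against the newborn. Cbr2, a carbonyl reductase, was under that level on all 3 bladder arrays and at least 6.83-fold higher than the mean of the 2 regions. Lower were the T-box factors Tbx20 (-5.17, adjusted p = 0.00471) and Tbx18 (-4.72, adjusted p = 0.0349), the collectin Colec11 (-4.64), the protocadherin Pcdh8 (-4.40) and the BMP-binding protein Bmper (-3.08). Of these, Tbx20, Tbx18 and Pcdh8 were under the filter level on 2 urethra arrays and Colec11 on 1. The counts depend on single arrays. Without urethra replicate 1, 2 or 6 there were 11, 8 and 5 higher and 2, 4 and 2 lower. Without bladder replicate 2, 6 or 8 there were 3, 8 and 40 higher and 1, 1 and 12 lower. Without urogenital sinus replicate 6 there were 18 higher and 5 lower, without replicate 2 there were 80 and 37, and without replicate 1 there were 259 and 217. Of the 26 genes given for this contrast, Tbx20 alone kept its call whichever array was left out. With title style as a block, in a fit that took the reference arrays as 3 samples, 23 were called higher and 0 lower. The 3 urethra arrays share 1 style that no bladder or sinus title has.

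**Figure D5:**
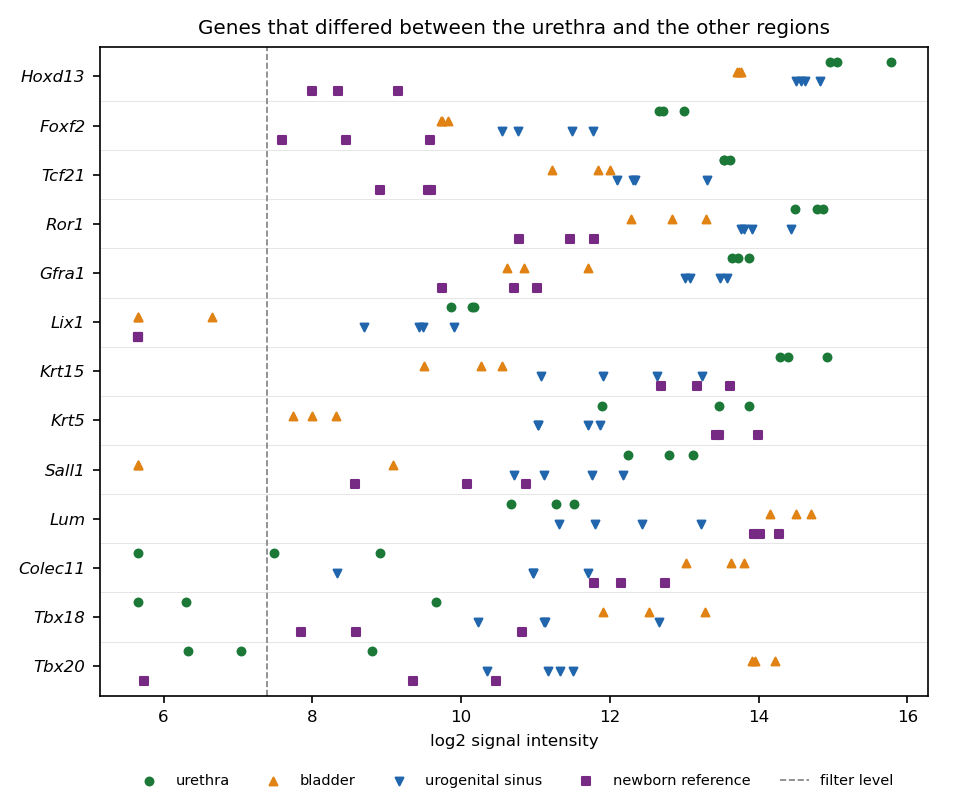
Log2 signal intensity (horizontal axis) by array for 13 genes called in the contrast of the urethra with the mean of the other regions. Urethra arrays are green circles, bladder orange triangles, urogenital sinus blue triangles and reference purple squares, with a dashed line for the filter level. Hoxd13 is high in all 3 regions and low in the reference, while Tbx20 and Tbx18 are lower in the urethra than on every bladder and sinus array.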

How the data were processed

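RNA of 13 samples was hybridised to Affymetrix mouse MOE430 arrays. The deposited values are signal intensities per probe set on a linear scale, made with GCOS per the submitters' processing notes (version not given in the sources used here). On each array their mean, with 2% trimmed, was 1500. Arrays are limited in precision by their number.

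Intensities were floored at their 20th percentile (50.23) and taken to log2. Probe sets above the 40th percentile (167.76) on at least 3 arrays were kept (33125 of 45037, with 64 control probe sets left out). Of the 45037, GEO's platform annotation gave 34945 exactly 1 gene symbol, 932 several and 9160 none, and 34741 were matched by Entrez identifier, with 0 symbols changed. A gene was represented by its probe set of highest mean (15019 genes). limma 3.58.1 (R 4.3.3, statmod 1.5.0) was fitted with the intensity trend to the 10 region arrays and the mean of the 3 reference arrays as 1 sample, with 7 residual and 2.79 prior degrees of freedom, and tests were two-sided. The reference thus adds no spread of its own. Nothing in the labels says whether region samples of 1 group came from separate litters, so the p-values reflect only how these samples vary, which may be technical. The script for the fit was tested on simulated data without a floor, in which the reference arrays varied less than the region arrays. In the data the median SD was 0.48 in the reference and 0.47 in the urethra. The simulation therefore does not show how well these p-values hold.

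The text names Actg2, up to 15 higher and 8 lower called genes with the largest differences among those whose urethra and reference arrays did not overlap, up to 3 called members of each list by smallest p (or the member of smallest p), and up to 5 called in each direction against the other regions. Other members named beside a list were chosen after their values were seen. The members and all lists were chosen with earlier results of these data known. Alternatives covered normalization, floor, filter, probe set choice, spread model, the treatment of the reference, title style, the replicate block and leaving out each array.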

Additional observations from a re-analysis of the deposited data

Results flagged for a closer look

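The 26 genes below were called in the contrast of the urethra with the mean of bladder and urogenital sinus (limma, adjusted over 15019 genes). Their urethra-to-newborn difference is thus not the same as the mean of that difference over these regions. It need not differ from each region. Kif26b stood at 14.15 in the urethra, 14.06 in sinus and 11.78 in bladder, and Nr4a3 at 8.01, 8.61 and 12.10. Tbx20, given below, lay apart from both regions. Values are urethra minus other regions on the log2 scale. Foxa2, Cbr2 and Lix1 were under the filter level of 7.39 on all 3 bladder arrays, so their measured differences depend on the floor, and their bounds are at least 3.77-fold, 6.83-fold and 3.20-fold higher.

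Among transcription factors, Sall1 was higher by 3.60, Sox2 by 2.88, Foxa2 by 2.64, Foxf2 by 2.33, Twist1 by 2.24, Tcf21 by 1.46, Grhl2 by 1.42 and Hoxd13 by 1.08. Tbx20 differed by -5.17, Tbx18 by -4.72 and Nr4a3 by -2.35. Tbx20 had 6.33, 8.80 and 7.04 in the urethra, against 13.95, 14.22 and 13.91 in bladder and 10.35 to 11.50 in sinus.

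Among receptors and secreted proteins, Gfra1 was higher by 1.57, Ror1 by 1.33 and Fzd7 by 0.90. Colec11 differed by -4.64, Pcdh8 by -4.40, Bmper by -3.08, Thbs2 by -2.17 and Lum by -2.17. The remaining genes were Pdlim4 (3.39), Krt15 (3.37), Krt5 (3.36), Cbr2 (3.32), Lix1 (2.38), Tmem200c (2.19) and Kif26b (1.23). For Hoxd13, Foxf2, Tcf21, Ror1, Fzd7, Gfra1, Grhl2, Lix1, Tmem200c and Kif26b the difference from the newborn was called higher as well.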

How the results depend on the processing

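Of 122 named genes called, 60 were called in all 28 alternatives run. Counts of genes higher and lower against the reference were 429 and 964 with arrays centred on their medians (which moved the median of all genes to 0.43), 56 and 539 with the 6 arrays alone, 1821 and 2375 with the reference arrays as 3 samples, 1368 and 1629 with title style as a block, and 1385 and 1595 against reference replicate 3 alone. Leaving out 1 array gave 448 to 921 higher and 1127 to 1602 lower. Against the other regions, counts were 45 and 47 under quantile normalization, 28 and 45 centred, 79 and 43 with no filter, and 154 and 96 with 3 reference samples. The style block, which also took 3 reference samples, gave 23 and 0. Leaving out 1 array gave 3 to 259 higher and 1 to 217 lower. The causes were not tested, and the fit with 6 arrays also has fewer degrees of freedom.

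No paired analysis of urethra and reference was possible because the labels give the reference arrays no number that ties them to an embryo (their numbers 1 to 3 only name them). The region titles share the numbers 1, 2 and 6, and same-numbered arrays are at the same Theiler stage, but no label says that a number marks 1 embryo or litter. Deviations from the group means correlated above 0.1 in 5 of the 7 same-numbered pairs. They ran from -0.17 to 0.36, against -0.51 to 0.41 in the 26 other pairs across regions. The same-numbered array was the best match in 5 of 14 comparisons. Since the ranges overlap, they do not settle whether a number marks 1 embryo, and the main fit has no term for it. With the replicate number as a random block (correlation 0.270), 657 genes were higher and 1304 lower against the reference, and 318 and 201 against the other regions, where Isl1, Rarb, Shh and Fendrr then passed the threshold (adjusted p = 0.031, 0.028, 0.0257 and 0.0492). Against the reference that block ended the calls of Fgfr4, Grhl3, Nr3c2, Sfrp2 and Ccna2 (adjusted p = 0.0508 to 0.0589) and gave one to Rdh10 (0.0393).

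Signs turned as follows. Hoxd9 was 0.032 under quantile normalization, 0.14 centred, 0.23 without urethra replicate 1 and -0.65 to 0.13 without 1 reference replicate. Actg2 was 0.10 centred. With shared-probe sets left out, Top2a was -0.63 and Meis2 -0.87, both of which were called higher (1.61 and 2.06). With the style block and against reference replicate 3, Tbx20 was 1.65 and Hoxa11 -0.23. Without 1 reference replicate, Hoxa11 was -0.021 to 0.72 and Bmper reached -0.39. Without 1 urethra replicate, Krt5 was -0.95 to 0.036, Bmper -0.06 to 0.86 and Xist -3.32 to 0.81. Values at the floor carry no order, which limits low genes.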
